A study of Mus musculus with 4 samples.

Results

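Ribosomal protein genes encode the protein parts of the cytosolic ribosome, which translates mRNA. The genes described here are the 83 gene symbols whose names follow the pattern of ribosomal protein genes (Rpl or Rps, with or without the p of the stalk proteins, and a number), without pseudogene names, out of 25804 distinct symbols. They comprise 43 proteins of the large subunit, 30 of the small subunit, 3 of the P stalk (Rplp0, Rplp1 and Rplp2, which recruit translation factors) and 7 paralogs whose names carry a further l (Rpl3l, Rpl7l1, Rpl10l, Rpl22l1, Rpl36al, Rpl39l and Rps27l). The pattern leaves out genes such as Rpsa, Fau and Rack1, which also encode ribosomal proteins and are given separately.

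Each ribosome takes up its proteins in fixed proportion, and their mRNAs are among the most abundant of a growing cell. Most of these mRNAs begin with a C and a run of pyrimidines, the terminal oligopyrimidine or TOP motif, through which mTOR and the RNA-binding protein Larp1 control their translation and stability. Satellite cells, the stem cells of skeletal muscle, are small and quiescent in resting muscle, and they enlarge and make new ribosomes when injury activates them.

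All 4 groups came from mice with a Pax7-nGFP reporter, which makes nuclear GFP from the promoter of the satellite cell gene Pax7. For the group fiSC (satellite cells straight from muscle), GFP+ cells were sorted from limb muscles of 3 pooled males, 13 weeks old. For the group ASC (activated satellite cells), GFP+ cells were sorted from 17 pooled tibialis anterior muscles of both sexes, 18 to 24 weeks old, 3 days after injection of 10 uM cardiotoxin, which destroys muscle fibres. The myoblast group was a culture from a male, 16 weeks old, at passage 2 in medium with serum and basic FGF. The MPC group (myogenic progenitor cells) was such a culture after 5 further passages with Forskolin (5 uM, which raises cAMP), Repsox (5 uM, a blocker of TGF-beta receptor signalling) and CHIR9901 (3 uM, as the labels spell it). There was 1 library per group, so no difference has a replicate check or a p-value, and library, preparation and group cannot be told apart. The myoblast and MPC library names share a prefix, while the fiSC and ASC libraries each have their own.

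After filtering, fiSC had 2185 cells, ASC 6448, myoblast 2351 and MPC 9059, and the median cell held 8760, 19810.5, 22843 and 13210 UMIs (unique molecular identifiers, 1 per captured mRNA molecule). Cells were grouped within each library without the ribosomal protein genes and named from marker lists. Myogenic progenitor-like cells made up 97.3% of the cells in fiSC, 31.8% in ASC, and 73.7% and 55.7% in the myoblast and MPC cultures. Their Pax7 levels were 839, 119.9, 1363 and 913 counts per 1e+06 UMIs (CPM) in that order. In ASC 46.4% of cells were macrophage-like, although the cells were sorted for GFP. Clusters left unnamed held 20.8% of the cells in ASC, 10.4% in myoblast and 25.1% in MPC. Pairs of libraries shared 2 to 18 cell barcodes. Of the members, 81 had a UMI in fiSC and 82 in each other library, and 80 reached 10 CPM and are called measured.

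To show what the starts of these genes look like, windows of 60 bases (30 before the annotated start, 30 from it on) are printed for members that followed or left the family in the comparisons. The capitals mark the longest run of a C followed by 4 or more C or T whose first base lies within 20 bases of the start, on the sense strand. Sequences and positions are those of RefSeq on GRCm38.p6, an older build than the GRCm39 of the counts.
Rps27 (chr3:90213619-90213678, minus strand): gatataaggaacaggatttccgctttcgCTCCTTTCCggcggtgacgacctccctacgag
Rps27l (chr9:66946056-66946115, plus strand): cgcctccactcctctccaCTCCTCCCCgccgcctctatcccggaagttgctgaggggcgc
Rpl36a (chrX:134585624-134585683, plus strand): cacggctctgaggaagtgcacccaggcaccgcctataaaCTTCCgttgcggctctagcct
Rpl36al (chr12:69184038-69184097, minus strand): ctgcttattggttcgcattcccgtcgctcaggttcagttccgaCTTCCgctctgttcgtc
Rpl35 (chr2:39005102-39005161, minus strand): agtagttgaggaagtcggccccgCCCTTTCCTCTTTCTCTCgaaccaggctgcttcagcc
Rps10 (chr17:27635215-27635274, minus strand): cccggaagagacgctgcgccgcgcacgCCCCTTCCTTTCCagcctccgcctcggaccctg
Rpl38 (chr11:114668550-114668609, plus strand): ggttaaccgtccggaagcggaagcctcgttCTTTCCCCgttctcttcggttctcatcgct
Rpl10 (chrX:74270786-74270845, plus strand): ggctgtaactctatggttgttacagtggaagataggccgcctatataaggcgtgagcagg
The Rps27l window holds its run of 9 bases upstream of the annotated start. Of the 2 starts listed for Rps27l, the one with the longest run is shown. The Rps27 window holds a run of the same length across its start. The run of Rpl35 is 18 bases long. The Rpl10 window holds none by this definition, which says only that these letters are not in this window.

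Of the 63 members with an entry in the RefSeq promoter table, 52 (82.5%) had such a run within 20 bases of a start, against 54.1% of the 16898 gene symbols of the files that had an entry. A run of at least 8 bases was found in 50.8% of these members and in 17.2% of all matched genes. These counts describe letters near annotated starts, and no start was measured here.

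The ribosomal protein genes took a smaller share of all UMIs in fiSC and myoblast than in ASC and MPC. Over the retained cells the share was 15.8% for fiSC, 17.9% for myoblast, 23% for MPC and 23.4% for ASC. The exact binomial interval, which covers counting error only, spanned 15.82 to 15.85% in fiSC, the library with the fewest UMIs. The median cell had 15.3% in fiSC (quartiles 10.6 and 19.3%), 18.1% in myoblast (16 and 20.7%) and 23.9% in MPC (20.9 and 27%). ASC stood apart, because its median cell had 18.5% while its pooled share was higher, and its quartiles ran from 12.9 to 26.8%.

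The ASC library held populations with different ribosomal protein shares. Its progenitor-like cells had a median of 27.9% (quartiles 25 and 30.3%, 2051 cells) and its macrophage-like cells a median of 13% (quartiles 11.2 and 15%, 2993 cells). The progenitor-like cells were also deeper, with a median of 47103 UMIs against 15976. Among progenitor-like cells alone, the medians were 15.2% for fiSC, 18% for myoblast, 24.3% for MPC and 27.9% for ASC. The quartile ranges of fiSC and myoblast overlapped, as did those of MPC and ASC.

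**Figure D1:**
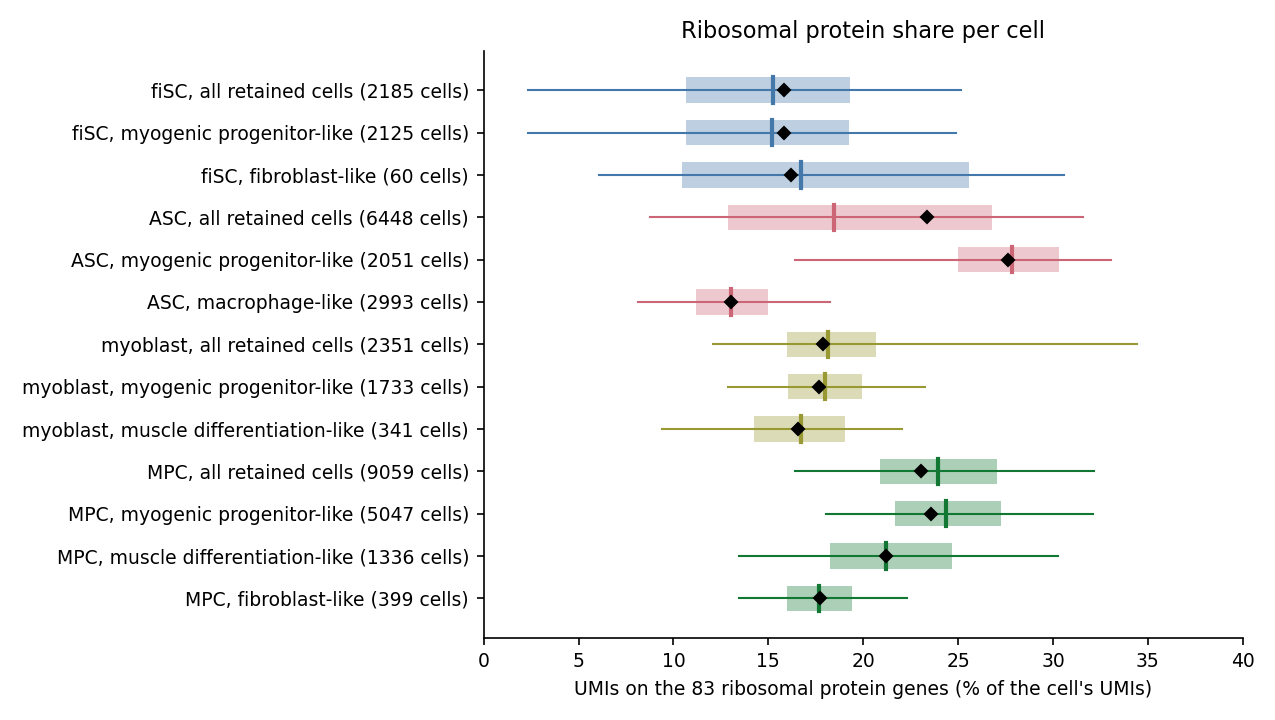
Ribosomal protein share per cell, as a percentage of the cell's UMIs, for each library and its main named classes of at least 50 cells. Unnamed cells and the 53 endothelial-like cells of ASC are not drawn. Boxes span the quartiles, the bar is the median, lines run from the 5th to the 95th percentile and black diamonds give the share of the pooled UMIs. Within ASC, the progenitor-like cells have a median of 27.9% and the macrophage-like cells 13%.

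Within the ASC progenitor-like cells, the cluster led by Phgdh and Srm, enzymes of serine and polyamine synthesis, had the highest median share (31.2%, 435 cells). The other progenitor-like clusters had medians of 24.9 to 27.4%. The unnamed cluster led by Myog, a transcription factor of muscle differentiation, had 27% (587 cells). The macrophage-like clusters ranged from 11.8%, in the cluster led by Atf3 and Rgs2, to 14%. The latter was the cluster led by the interferon response genes Rsad2 and Ifit3. An unnamed cluster of 86 shallow cells (median 2192.5 UMIs) also carried macrophage markers, at 35587 CPM, and had a median share of 22%. ASC barcodes under 1000 UMIs, which were not retained, had a median share of 21.9% and carried macrophage markers at 5741 CPM. The share of the macrophage-like cells was below that of the shallow barcodes and that of the progenitor-like cells above it.

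In fiSC a group of cells had few ribosomal protein UMIs. The share was under 5% in 308 of 2185 fiSC cells (14.1%, exact binomial interval 12.7 to 15.6%), against 91 cells in ASC, 8 in myoblast and 7 in MPC. These fiSC cells had a median of 3817.5 UMIs against 9407 in the other fiSC cells, and a median mitochondrial share of 5.12% against 3.31%. Their summed progenitor markers stood at 5716 CPM against 7740.3 CPM. The cluster led by Slc22a23 and Hk2 held 159 of them, 26.3% of its cells. The fiSC cells at 5% or more had a pooled share of 16.7%. Barcodes of fiSC that were not retained had median shares of 2.06% (over the mitochondrial limit) and 3.01% (under 1000 UMIs). Over the mitochondrial limit, the medians of ASC, myoblast and MPC barcodes were 6.5, 3.13 and 8.28%. The fiSC library also carried immediate early and heat shock genes at a summed 43612 CPM, against 3233 to 6306 CPM in the other libraries. Within fiSC that sum was 24674 CPM in the cells under 5% and 44894 CPM in the cells at 5% or more. The part of these measures in the lower fiSC share was not tested.

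Some clusters of shallow cells had high shares in the cultures. The unnamed myoblast cluster led by Cmss1 and Camk1d had a median share of 35.2% (182 cells, median 3731.5 UMIs), and the members Rpl22 and Rps26 were among its 10 leading genes. The unnamed myoblast cluster led by Crabp1 had 32.1% (63 cells). The unnamed MPC cluster led by Plscr3 had 33.4% (74 cells, median 2153.5 UMIs). Other shallow clusters did not have such shares. In MPC a cluster of 164 cells (median 1673 UMIs) had 18.2% and a cluster of 105 cells (median 2747 UMIs) had 22.4%. In myoblast a cluster of 27 cells (median 1724 UMIs) had 18.8%.

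The share also varied with the depth of the cell, and in different directions. In MPC progenitor-like cells the median was 27.7% at 5000 to 10000 UMIs, 24% at 10000 to 20000, 21% at 20000 to 40000 and 19.8% above that. In myoblast progenitor-like cells it was 18.8, 19.3, 17.8 and 16.1% in the same ranges. ASC progenitor-like cells ran the other way, with 19.6, 24, 27.9 and 28.3% on 57, 157, 501 and 1310 cells. In fiSC it was 3.86% under 5000 UMIs and 16, 16.4 and 16.2% in the next ranges, with 27 cells in the last. At 10000 to 20000 UMIs, where each library had at least 157 progenitor-like cells, fiSC was lowest at 16.4%, myoblast had 19.3%, and ASC and MPC both had 24%. At 5000 to 10000 UMIs MPC was above ASC, and above 20000 UMIs ASC was above MPC.

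**Figure D2:**
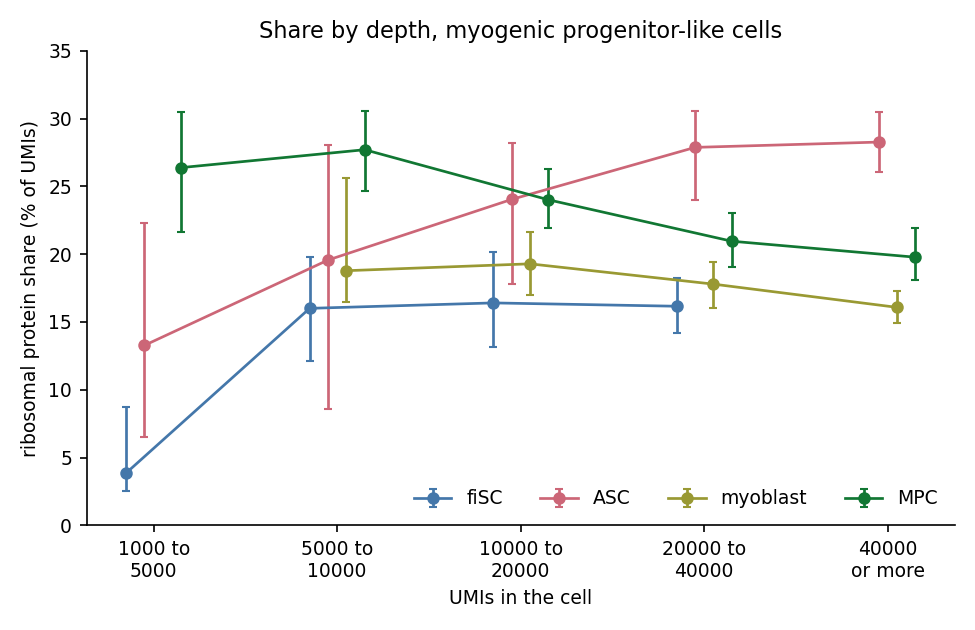
Ribosomal protein share in myogenic progenitor-like cells by UMIs per cell, as median (points) and quartiles (bars), for the 4 libraries. The ASC and MPC lines meet at 10000 to 20000 UMIs, where both have a median of 24%, and fiSC lies lowest in each range in which it has a point.

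Cells with G2/M transcripts were compared with cells without them, after each progenitor-like cell was thinned to 2000 UMIs, which left out 44 fiSC, 2 ASC, 2 myoblast and 18 MPC cells. In MPC the median share was 23.5% (quartiles 21 and 26%) in the 3371 cells with 2 or more G2/M UMIs. It was 26.95% (quartiles 23.8 and 30.4%) in the 1047 with none. The difference was -3.45 percentage points in MPC, -0.10 in myoblast and 2.02 in ASC, where 86 cells had no G2/M UMI. In fiSC 13 cells had 2 or more. The quartile ranges overlapped in each library, and the unthinned medians of all progenitor-like cells are those given above. Thinning left the original depths unequal. In the depth ranges starting at 5000 and 40000 UMIs, MPC progenitor-like cells had summed G2/M genes at 1486 and 4482 CPM. Those of myoblast had 1752 and 4763 CPM and those of ASC 1780 and 3040 CPM. The median share was lower in the deeper MPC (19.8 against 27.7%) and myoblast cells (16.1 against 18.8%). It was higher in the deeper ASC cells (28.3 against 19.6%). The part of depth in the G2/M differences was not tested.

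Members were then compared with the family as a whole. The log2 ratio of CPM (with 5 CPM added to each value) was taken for each measured member, and its distance from the median member is called the departure. A departure of 1.5-fold or more is counted. The share of all measured genes that lay equally far from the same median is given beside each count.

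In MPC against myoblast, the family was higher in MPC and nearly all members shared the shift. The median member had a log2 ratio of 0.37, against 0.06 for all 9470 measured genes, and 77 of 80 members were above 0 (55.2% of all genes). The median was 0.37 for the large subunit and 0.49 for the small subunit. Of 80 members 2 departed, Rps27l and Rpl36al, both lower, where 36.5% of all genes lay as far from that median. In progenitor-like cells the median was 0.42 and the same members departed (42.1% of all genes). With TMM size factors the median was 0.29, and with median-of-ratios factors 0.28.

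In ASC against fiSC the median member had a log2 ratio of 0.55 (0.08 for all genes), and 73 of 80 members were above 0 (52.5% of all genes). In progenitor-like cells the median was 0.79, 77 of 80 were above 0 (50.3% of all genes), and 26 were at least 2-fold higher (24.1% of all genes). Departures numbered 13 over all cells, 7 higher and 6 lower (67.9% of all genes departed), and 14 in progenitor-like cells (72%). The progenitor-like cells of ASC carried macrophage markers at a summed 214 CPM, with 2 of 14 at 20 CPM or more and none at 0. Those of fiSC carried them at 7.80 CPM, with C1qa, Tyrobp and Ms4a7 at 0. The part of these markers' cells in the ratios was not tested.

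In myoblast against fiSC the median was 0.11 by CPM, 0.07 with TMM factors and -0.11 with median-of-ratios factors, so its sign depended on the scaling. The median of all genes was 0.30 by CPM, and 50 of 80 members were above 0 (58.8% of all genes). Departures numbered 16, 9 higher and 7 lower (65.6% of all genes), and 17 in progenitor-like cells (66.6%). In MPC against fiSC the median was 0.46 by CPM (0.35 for all genes), 0.34 with TMM and 0.14 with median-of-ratios factors. There 73 of 80 were above 0 (60.9% of all genes) and 13 departed, 7 higher and 6 lower (61.9% of all genes), as did 13 in progenitor-like cells (62.9%). The 3 comparisons with fiSC share that library, so a member high or low in it alone departs in each of them.

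**Figure D3:**
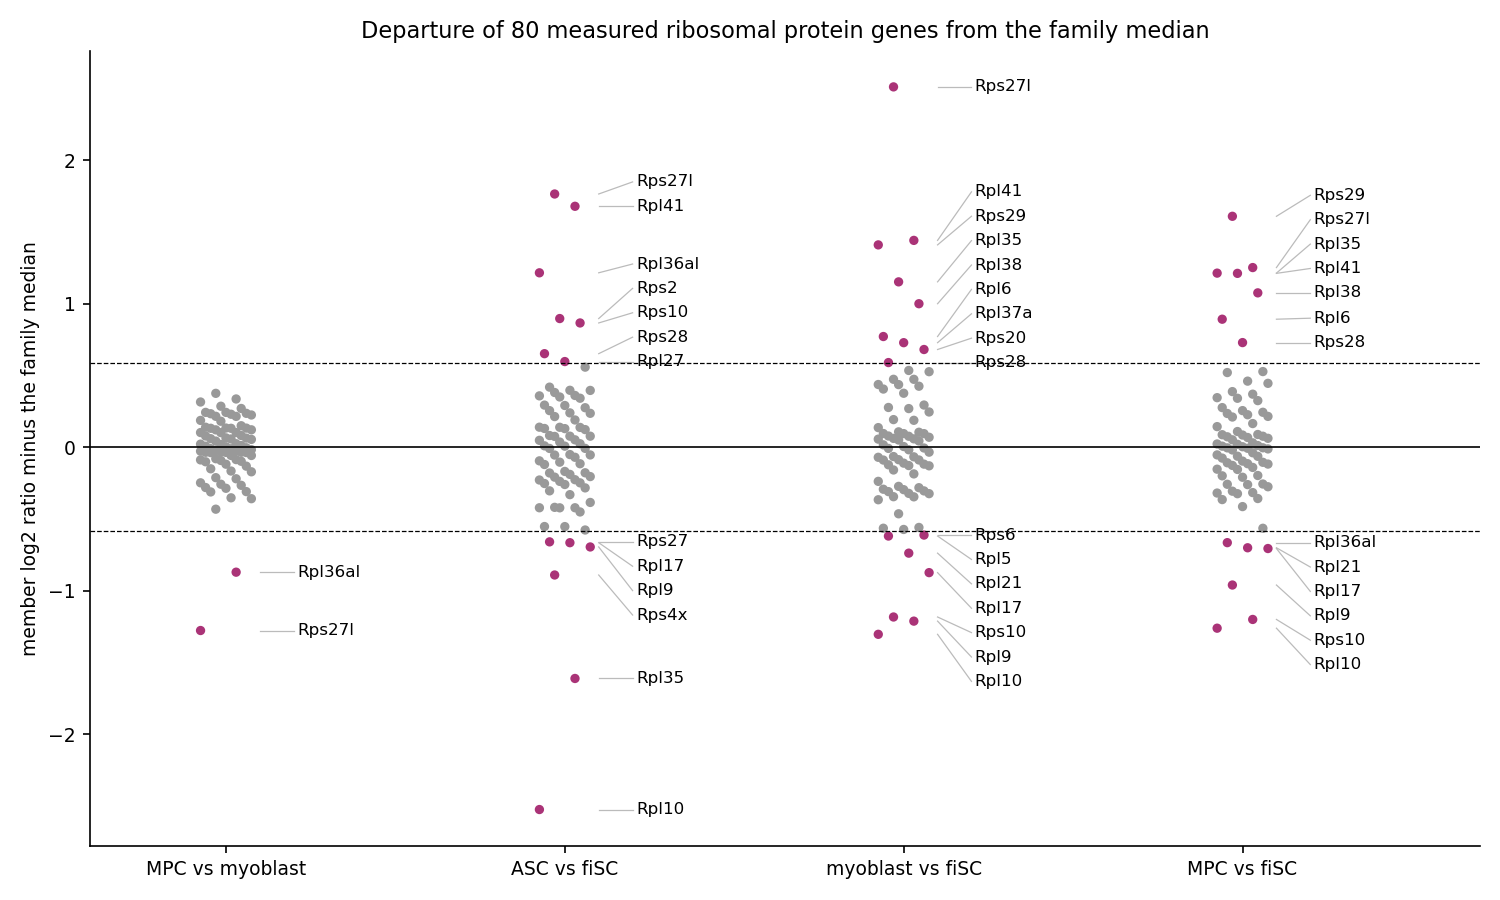
Log2 ratio of each of 80 measured members minus the family median, for the 4 comparisons of libraries. Dashed lines mark 1.5-fold, and named points lie beyond them. MPC against myoblast has 2 such members, and the comparisons with fiSC have 13 to 16.

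Members close to the family median show the trend, and levels from here on are CPM of captured 3' ends, listed for fiSC, ASC, myoblast and MPC in that order unless libraries are named. Rps15a of the small subunit had 2379, 3217, 2529 and 3278 CPM. The levels of Rpl10a, of the large subunit, were 1471, 2083, 1589 and 2016 CPM. Rpl8, also of the large subunit, stood at 1911, 2960.3, 2049 and 2619 CPM. All 3 were lowest in fiSC and higher in ASC and in MPC than in myoblast.

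Among large subunit members, Rpl10 departed most. Rpl10 joins the large subunit late, in the cytoplasm, and its gene lies on the X chromosome. Its levels were 2039.8, 517, 886 and 1167 CPM, highest in fiSC and lowest in ASC. The departure from the family was -2.53 for ASC, -1.30 for myoblast and -1.26 for MPC, each against fiSC. Within ASC it was low in progenitor-like (542 CPM) and macrophage-like cells (449.8 CPM) alike, and in MPC against myoblast its departure was 0.02. How reads that match several copies were counted, and whether this was the same in the 4 libraries, is not given in the sources used here. The levels of members with near copies, such as Rpl10, Rpl9, Rpl36a, Rps18 and Rps27, are therefore uncertain, and so are the departures of Rpl10, Rpl35 and Rps10, whose part from such counting was not tested.

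Rpl35, which lies beside the exit of the peptide tunnel, had 867, 414, 2080.4 and 2771 CPM. It alone among the measured members departed more than 2-fold below the family in ASC (-1.61) and more than 2-fold above it in both cultures (1.15 for myoblast and 1.21 for MPC). In ASC it stood at 483 CPM in progenitor-like and 246 CPM in macrophage-like cells, both below the fiSC level.

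Rpl41, a very short basic peptide, had 2119.5, 9993, 6206 and 6755 CPM. It ranked number 35 among the members in fiSC and number 1 in ASC and myoblast. Its departure against fiSC was 1.68 for ASC, 1.44 for myoblast and 1.21 for MPC. Rpl38, known for its part in translating Hox mRNAs, had 1330.3, 2551, 2869.9 and 3862 CPM and departed in myoblast (1.00) and MPC (1.08) against fiSC. Rpl6 followed the family in ASC (departure -0.01) and was above it in the cultures (0.77 and 0.89), at 1919.5, 2807, 3531 and 4902 CPM. All 3 were lowest in fiSC. Rpl37a, at 2070.0, 4009, 3696 and 3917 CPM, departed in myoblast against fiSC (0.73). Rpl27, at 1003, 2235, 1032 and 1263 CPM, departed in ASC against fiSC (0.60).

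Other large subunit members were below the family median in comparisons with fiSC. Rpl9 had 2707, 2456, 1255 and 1909 CPM. Rpl17 had 2791, 2585, 1637 and 2349 CPM, and like Rpl9 it departed below the family in all 3 comparisons with fiSC. Rpl21, at 2292, 2294, 1477 and 1936 CPM, departed in the cultures (-0.74 for myoblast and -0.70 for MPC). Rpl5, which carries 5S rRNA into the ribosome, had 1781, 1783, 1246 and 1836 CPM and departed in myoblast (-0.62). All 4 were lowest in myoblast.

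Small subunit members departed in both directions. Rps29, a small zinc-binding protein, had 2098, 3681, 6009.9 and 8809 CPM and was the most abundant member in MPC. Its departure against fiSC was 0.26 for ASC, 1.41 for myoblast and 1.61 for MPC. Rps10, which is ubiquitinated when ribosomes collide, had 914, 2456, 430.5 and 544 CPM. It was above the family in ASC (0.87) and below it in the cultures (-1.18 and -1.20), the opposite of Rpl35.

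Rps2 had 1942, 5321, 2904 and 3383 CPM and departed in ASC (0.90). Rps28, at 1439, 3329, 2334 and 3284 CPM, was above the family against fiSC in ASC (0.65), myoblast (0.59) and MPC (0.73). Rps20, at 2296, 4974, 3966 and 4131 CPM, departed in myoblast (0.68). These 3 were lowest in fiSC. Rps4x, encoded on the X chromosome, had 2866, 2270.1, 2084 and 3287 CPM and departed below the family in ASC (-0.89). Rps27 had 2181, 2028, 2241 and 3153 CPM, with a departure of -0.66 in ASC. Rps6, the substrate of S6 kinase, had 1515, 1661, 1065 and 1663 CPM, with a departure of -0.61 in myoblast.

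**Figure D4:**
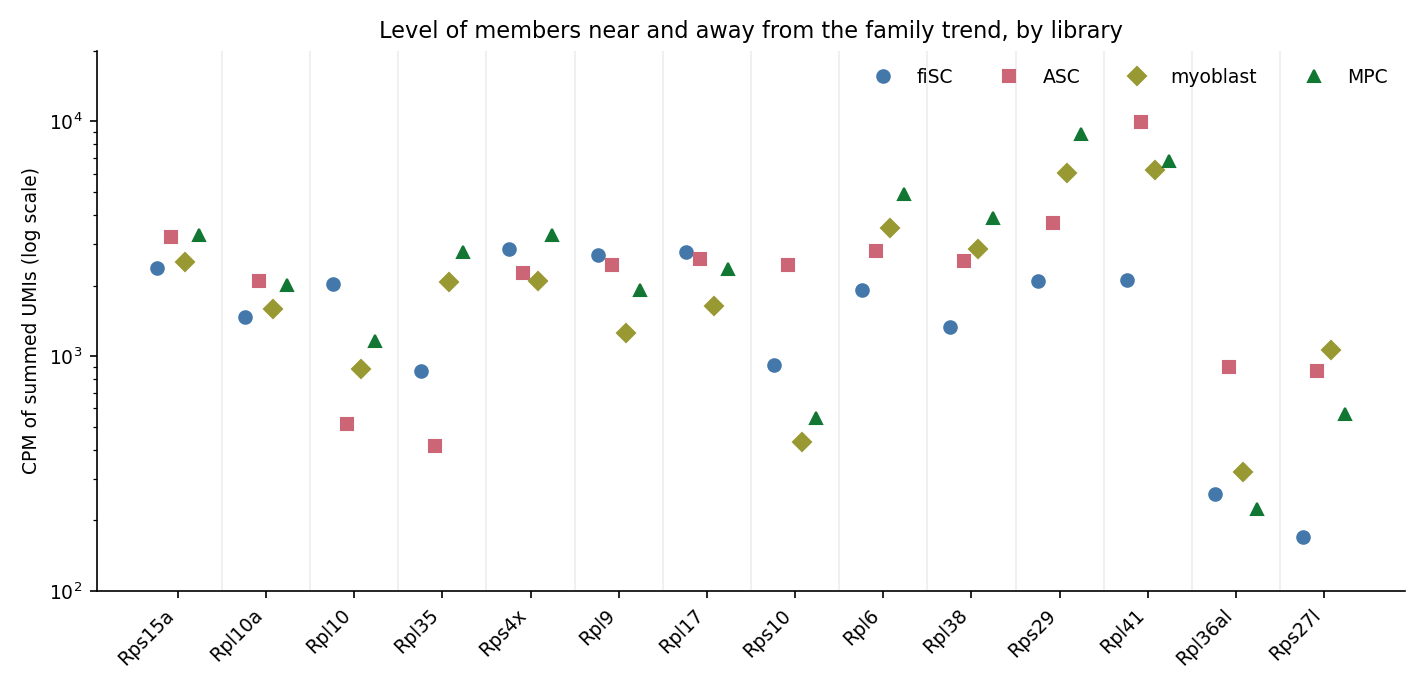
Level of 14 members in each library, in CPM on a log scale. Rps15a and Rpl10a lie near the family trend. Rpl10 is highest in fiSC (2039.8 CPM), Rpl35 lowest in ASC (414 CPM), Rps10 highest in ASC (2456 CPM) and Rps27l lowest in fiSC (169 CPM).

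The stalk proteins stayed within 1.5-fold of the family in the 4 comparisons of libraries. Rplp1, at 3491, 6591, 5087 and 4873 CPM, was 1 of the 3 members that were not higher in MPC than in myoblast. Rplp0, to which the other stalk proteins bind, had 2393, 3876, 3578 and 3806 CPM. The abundant member Rpl13 (3944, 4840.4, 3599 and 4995 CPM) also stayed within 1.5-fold of the family in these comparisons.

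Among the paralogs, Rps27l and Rpl36al moved apart from the genes they resemble. Rps27l, a paralog of Rps27 and a known p53 target, had 169, 865, 1065 and 565 CPM. Its departure against fiSC was 1.77 for ASC, 2.51 for myoblast and 1.25 for MPC. In MPC against myoblast it was -1.28, the largest of that comparison, while Rps27 had 0.12. In progenitor-like cells Rps27l had 1119 CPM in myoblast and 507 CPM in MPC. Rps27l was thus lower in MPC than in myoblast where Rps27 was higher.

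Rpl36al, an autosomal copy of the X-linked Rpl36a, had 260.2, 899.9, 320.0 and 225 CPM. It was above the family in ASC (1.22) and below it in MPC, against myoblast (-0.87) and against fiSC (-0.66). Rpl36a had 1016, 1391, 1471 and 1777 CPM and was highest in MPC, where Rpl36al was lowest. The run printed for each of these genes is 5 bases long.

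Rpl22l1, a paralog of Rpl22, had 752, 1212, 838 and 902 CPM and stayed within 1.5-fold of the family between libraries. Rpl7l1 had 98.9, 109, 113 and 114 CPM. The other paralogs were near or below detection. Rpl3l, the paralog of Rpl3 in mature striated muscle, had 5, 76, 13 and 80 UMIs. Rpl39l had 0, 109, 23 and 20 UMIs. Rpl10l had 0 UMIs in each library, which allows up to 0.150 CPM in fiSC and 0.0167 CPM in ASC by a limit of 3 counts.

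Within the ASC library, macrophage-like cells had lower levels of almost every member than progenitor-like cells. The median log2 ratio was -1.13 (-0.33 for all genes), 79 of 80 members were below 0 (59.2% of all genes), and 58 were at least 2-fold lower (30.8% of all genes). Departures numbered 9, 4 higher and 5 lower, where 70.3% of all genes lay as far from the median. Rps29 was level between the classes, at 3759 against 3683 CPM in progenitor-like cells. Rpl10 (449.8 against 542 CPM), Rpl38 (2038 against 2800.2 CPM) and Rps24 (3025 against 4209 CPM) also lay above the family ratio.

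Members further below the family ratio in ASC macrophage-like cells were led by Rpl22l1, at 296 against 1597 CPM, while Rpl22 had 1033 against 2079.6 CPM. Rpl13a, known for a role in silencing inflammatory mRNAs in myeloid cells, had 96.9 against 476 CPM. Rps2 had 1986 against 6681 CPM and Rplp0 1476 against 4883 CPM. The last of the 5 was Rpl14 (839 against 3079.8 CPM), which was named after its values were seen. With doublets kept, the median log2 ratio of members, ASC: macrophage-like vs myogenic progenitor-like, was -0.92 and 4 members departed.

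**Figure D5:**
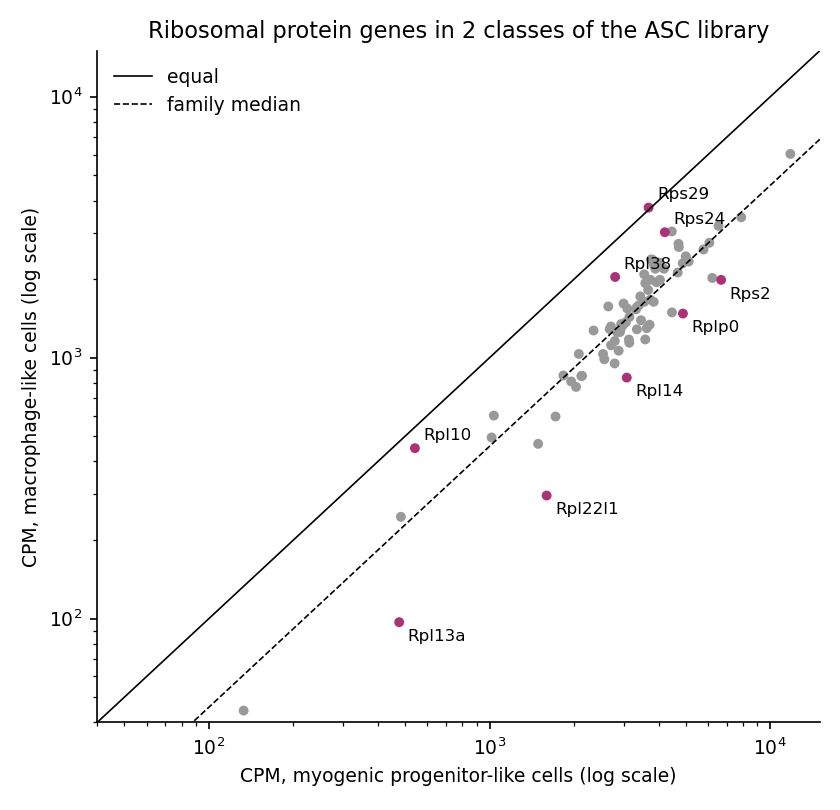
CPM of the 80 measured members in macrophage-like (vertical) and myogenic progenitor-like cells (horizontal) of the ASC library, both on log axes. The solid line marks equal levels and the dashed line the family median ratio, and named points depart by 1.5-fold or more. Rps29 lies on the line of equal levels, and Rpl22l1 and Rpl13a lie furthest below the dashed line.

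In the cultures, most members had slightly lower levels in muscle differentiation-like than in progenitor-like cells, as did most genes. The median member lay less far below 0 than the median gene. In myoblast the median log2 ratio was -0.10 (-0.31 for all genes) and 60 of 80 members were below 0 (67.6% of all genes). The 1 departing member (44.7% of all genes) was Rps27l, at 637 CPM in differentiation-like against 1119 CPM in progenitor-like cells. In MPC the median was -0.15 (-0.27 for all genes), 74 of 80 were below 0 (65% of all genes), and 0 of 80 departed (44.5% of all genes). Differentiation-like cells had a median share of UMIs of 16.7% in myoblast and 21.2% in MPC, against 18% and 24.3% in progenitor-like cells.

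The fibroblast-like cells of MPC had a median share of 17.7% (399 cells) against 24.3% in the progenitor-like cells. Their fibroblast markers summed to 4064 CPM, against 582 CPM in the progenitor-like cells. The class was mixed, with 9 of 15 progenitor and 11 of 19 muscle differentiation markers at 20 CPM or more. Its Pax7 level was 287 CPM, against 913 CPM in the progenitor-like cells. The median log2 ratio was -0.43 (-0.06 for all genes), 79 of 80 members were below 0 (54.3% of all genes) and 0 departed (39.7% of all genes). The fibroblast-like cells were deeper, with a median of 18917 UMIs against 12577. Progenitor-like cells had a median share of 24% at 10000 to 20000 UMIs, 21% at 20000 to 40000 and 19.8% above that. The part of depth in the lower share was not tested.

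Ribosomal proteins outside the name pattern varied as well. Rpsa had 2088, 3882, 3427 and 4509 CPM in fiSC, ASC, myoblast and MPC, and Fau 2122, 3721, 2458 and 3331 CPM. Rack1 had 1510.5, 1793, 1654 and 2301 CPM. Both Rpsa and Fau were lowest in fiSC.

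Other genes of translation were counted from lists, with 2-fold as the size that counts. Of 19 other TOP mRNAs of translation, 0 reached 2-fold in MPC against myoblast, where 6.83% of all genes were 2-fold higher and 6.42% lower, and their median log2 ratio was 0.24. In ASC against fiSC 4 were higher and 1 lower (24.6% and 21% of all genes). In progenitor-like cells 7 were higher and 1 lower (24.1% and 24.1% of all genes), with a median of 0.52. Npm1, a nucleolar chaperone that is also on the assembly list, had 821 CPM in fiSC and 4628 CPM in ASC progenitor-like cells, and the translation initiation factor Eif4a2 was the lower one (211 and 77.7 CPM). In myoblast against fiSC 2 were higher and 1 lower (27.7% and 17.8% of all genes), and in MPC against fiSC 4 were higher and 0 lower (27.9% and 15.8% of all genes).

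Ribosome assembly factors, which process rRNA and join proteins to it, were not higher together with the family in MPC. In MPC against myoblast, progenitor-like cells, 0 of 39 were 2-fold higher and 4 lower (7.64% and 7.78% of all genes). Their median was -0.47, against 0.42 for the family and 0.05 for all genes. Over all cells the median was -0.23 (0.06 for all genes). In MPC against fiSC progenitor-like cells it was -0.07, where the family had 0.49 and all genes had 0.38. Bop1, a factor of large subunit rRNA processing, had 19.3 CPM in MPC and 53.9 CPM in myoblast progenitor-like cells, and the helicase Ddx21 had 229 and 521 CPM. In ASC against fiSC, progenitor-like cells, 12 of 39 were higher and 2 lower (24.1% and 24.1% of all genes), with a median of 0.51 (0.01 for all genes). Of these, Nhp2 had 398 CPM in ASC and 87.7 CPM in fiSC, and Nop10 had 330.3 and 81.1 CPM, and both are proteins of the particles that pseudouridylate rRNA. In ASC macrophage-like against progenitor-like cells 37 of 39 were lower (30.8% of all genes), with a median of -2.16 (-0.33 for all genes).

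Of 15 measured genes of RNA polymerase I transcription, which makes the large rRNAs, 2 were higher and 1 lower in ASC against fiSC progenitor-like cells (24.1% and 24.1% of all genes), with a median of 0.38 (0.01 for all genes). The lower one was Myc, an activator of ribosome synthesis that is also an immediate early gene, at 411 CPM in fiSC and 26.3 CPM in ASC. In MPC against myoblast 0 of 15 were 2-fold higher and 0 lower (6.83% and 6.42% of all genes). Of the genes that control TOP mRNAs, 14 were measured in ASC against fiSC and 4 were lower (21% of all genes), with a median of -0.38 (0.08 for all genes), a share near that of all genes. In MPC against myoblast 1 of 15 was lower (6.42% of all genes), Pdcd4, an inhibitor of initiation, at 40.5 CPM in MPC and 122 CPM in myoblast. Larp1, which binds TOP mRNAs, had 151, 117, 108 and 139 CPM in fiSC, ASC, myoblast and MPC.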

How the data were processed

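The authors deposited unnormalized UMI counts for each gene and barcode (10x Genomics 3' v3.1 libraries). The submitters' processing notes name STAR 2.7.10b and GRCm39. How UMIs were collapsed, how cells were called and how reads matching several copies were treated are not given in the sources used here. The 25828 features were summed to 25804 symbols.

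Cells with at least 1000 UMIs, 500 genes and at most 10% mitochondrial UMIs were kept, and Scrublet doublets (scanpy 1.11.5) were removed. Its automatic threshold served where it marked at least 0.5% of cells, and otherwise the quantile at 0.8% per 1000 cells, a rule set after the thresholds were seen. Each library was clustered alone (2000 variable genes without members, 30 components, 15 neighbours, Leiden at resolution 0.5, leidenalg 0.10.2, igraph 0.11.9). Clusters were named from marker lists, by details set after the clusters were seen. UMIs were summed over cells and scaled to CPM. Intervals are exact at 95%. The Poisson half-width of a measured member was at most 4.51% (fiSC), 1.41% (ASC), 2.53% (myoblast) and 1.59% (MPC). Size factors came from edgeR 4.0.16 (TMM) and from median ratios.

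No test was made, since each group is 1 library. Named members were those that departed in any comparison (at most 25), the 5 with the highest mean level, the paralogs, and the member nearest the median in each comparison. Genes named from the other lists were chosen after their values were seen. The members, lists and rules were chosen with earlier results of these data known. The computation was tested on simulated counts with known changes. RefSeq promoters matched 63 of 83 members. Protein identity between paralogs and snoRNA host genes were not analysed here, and results on some genes, with the alternative that added ribosomal proteins outside the name pattern to the share, are not reported here.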

Additional observations from a re-analysis of the deposited data

Results flagged for a closer look

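Features named as ribosomal protein pseudogenes lie outside the members and outside every comparison above, yet they carried UMIs. Summed over the 8 such features, the levels for fiSC, ASC, myoblast and MPC were 123, 335, 64.2 and 106 CPM, above the limit that a count of 0 allows in each library and highest in ASC. In the same order, Rpl9-ps6 had 45.9, 149, 21.7 and 39.4 CPM, Rpl10-ps3 had 54.4, 103, 19.8 and 27.8 CPM and Rpl36a-ps1 had 21.1, 72.1, 18 and 33.7 CPM. The copy Rps27rt, which the name pattern also leaves out, had 111, 206, 50.6 and 91.8 CPM.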

How the results depend on the processing

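The member share of UMIs, fiSC (percent), and likewise the member share of UMIs, ASC (percent), the member share of UMIs, myoblast (percent), and the member share of UMIs, MPC (percent), moved beyond their counting intervals under most settings. In that order they were 15.4, 22.7, 17.2 and 22.5 over every deposited barcode, 16.3, 23.5, 17.1 and 23.6 with at most 5% mitochondrial UMIs, 15.8, 27.7, 17.7 and 23.6 in progenitor-like cells, and 16.4, 24, 19 and 24.1 with totals without mitochondrial genes. In cells of 8000 to 16000 UMIs they were 16.7, 14.3, 20.8 and 24.9, and the ASC cells in that range carried macrophage markers at 32504 CPM. The medians over cells were 15.3, 18.5, 18.1 and 23.9. With at least 3000 UMIs the first 3 libraries had 16, 23.4 and 17.8, and with doublets kept the last 2 had 17.8 and 22.9.

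The median log2 ratio of members, ASC vs fiSC, was past 1.5-fold at 0.79 in progenitor-like cells, 0.81 with TMM and 0.66 with median-of-ratios factors. The median log2 ratio of members, myoblast vs fiSC, turned to -0.0087 at 5% mitochondrial UMIs and -0.11 with median-of-ratios factors. At a 2-fold departure, the members that depart, MPC vs myoblast, numbered 1, and the members that depart, ASC vs fiSC, 5. The members that depart, myoblast vs fiSC, numbered 8 and the members that depart, MPC vs fiSC, 7. With doublets kept, the members that depart, ASC: macrophage-like vs myogenic progenitor-like, numbered 4. Fewer members pass 2-fold by construction, and the cause of the other shifts was not tested. Of the departures of named members, 1146 of the recomputed values kept their side of 1.5-fold, 3 no longer reached it (all Rps28 in myoblast against fiSC) and 3 newly did (Rps20 in ASC and Rps4x in myoblast, each against fiSC). Any setting that only rescales a library shifts a member and the family median nearly alike, so it could hardly move a departure. The share of members with a pyrimidine run was 46% within 5 bases of the start. No paired analysis was possible because each group has 1 library. Depth limits the comparison of ASC with fiSC progenitor-like cells, since few of these cells share a depth range.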
